A study of Mus musculus with 8 samples.

Results

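Chemokine receptors decide which chemoattractant signals a T cell can follow, and 9 of them were examined in tumor-infiltrating CD8+ T cells with and without LSD1. The genes were Ccr2, Ccr4, Ccr7, Ccr8, Cxcr3, Cxcr4, Cxcr5, Cxcr6 and Cx3cr1. They were chosen by their symbols from the 55335 genes of the count file, and all 9 of 9 passed the filter on low counts.

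LSD1, encoded by Kdm1a, is a histone lysine demethylase, and the study asked how its loss in T cells alters the transcriptome of T cells inside a tumor. RNA-seq was performed on cells that had been sorted as CD8+CD44+PD-1+ from the CD45.2+TCRβ+ cells of subcutaneous MC38 tumors, MC38 being a mouse colon carcinoma line. The 4 wildtype (WT) samples came from Lsd1f/f mice, and each held the cells of 2 mice. The 4 knockout (KO) samples came from Cd4-Cre+Lsd1f/f mice, each from 1 mouse. All were C57BL/6 littermates aged 6 to 10 weeks that carried the floxed allele and the tumor in common. Because Cd4-Cre is active in developing thymocytes, both the CD4 and the CD8 lineage lose LSD1 in the KO mice, while other cells of the host keep it. Tumors were taken 18 days after implantation by the methods and the sample labels, and 14 days by the series design text. Each sample was 10000 to 20000 sorted cells. S1, S2, S3 and S4 denote the WT samples, and S5, S6, S7 and S8 the KO ones.

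Chemokine receptors are seven-transmembrane receptors that couple mainly to Gi proteins. When a chemokine binds, the G protein releases its subunits, PI3Kγ and Rac regulators are engaged, and the cell polarizes and moves up the gradient, until kinases of the GRK family and the arrestins switch the receptor off. In CD8+ T cells, CCR7 guides naive and central memory cells into lymph nodes, CXCR3 and CXCR6 are linked to entry into and residence in inflamed tissue and tumors, and CX3CR1 marks differentiated effector cells.

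Of the 9 receptors, Ccr2 rose and Ccr7 fell in the KO cells, with a 1.98-fold and a 1.87-fold difference between the groups, and the other 7 did not pass the test. A gene was called changed when its fold change exceeded 1.5 and its adjusted p in edgeR's quasi-likelihood test was under 0.01. By that rule 2 of the 9 receptors were called, or 22.2%, beside 4.9% of all 15378 genes tested. By direction, 1 of 9 was higher (2.91% of all genes) and 1 of 9 lower (1.99%), and relaxing the adjusted p to 0.05 left the calls at 2 of 9 beside 8.1% of all genes. With 9 genes, this is a description of 2 genes and not a property of the family. The 9 receptors had a median log2 fold change of 0.29, and all tested genes had one of -0.01. The samples of the 2 groups did not overlap for 3 of the 9 receptors, which were Ccr2, Ccr7 and Cxcr4, beside 17.3% of all tested genes. Ccr2 and Cxcr4 were apart upward (8.99% of all genes) and Ccr7 downward (8.28%).

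Totals of counts ran from 11657807 to 30295406 per sample, and S8 was the deepest. Kdm1a itself stood at 44.6, 47.3, 42.7 and 44.9 counts per 1000000 counts (CPM) in S1 to S4 and at 25.2, 30.6, 32.1 and 34.8 CPM in S5 to S8. No KO sample reached the level of a WT sample, yet with a log2 fold change of -0.55 ± 0.14 (SE) and an edgeR adjusted p of 0.0163 the gene was not called. Counts are for the whole gene, so the deleted exons were not looked at apart. For the sorted cell type, the 10 CD8 T cell markers were present in every sample and summed to between 5624 and 6181 CPM in WT and to between 5411 and 5952 CPM in KO. Ptprc, Cd8a and Cd44 had the highest levels of the 10 over all 8 samples, although Pdcd1 (609.5 CPM) was above Cd44 in WT. Cd44 rose from 433 to 785 CPM (edgeR adjusted p = 0.000107). The median log2 fold change of the 10 was -0.22, with Cd8b1 at 346 and 264 CPM in WT and KO and Cd3g at 185 and 144 CPM, both apart between the groups and not called.

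Transcripts on the marker lists of other cells were present too, and several of the list sums differed between the groups. A sum can rest on few genes, and which cells these transcripts came from was not tested. In the CD4 T cell and Treg list, Ikzf2 was at 341 CPM in WT and 284 CPM in KO, and Cd4 at 4.54 and 14.3 CPM. In the NK cell list, Klre1 was at 48.7 and 38.3 CPM, and Ncr1 at 0.0681 and 0.391 CPM. The 17 macrophage and monocyte markers summed to 369, 442, 1058 and 503 CPM in S1 to S4 and to 147, 179, 139 and 120.1 CPM in S5 to S8, and 12 of the 16 tested were called lower. Ctss, Lyz2 and Apoe had the highest levels over all 8 samples, although Cd68 (21.4 CPM) was above Lyz2 and Apoe in KO, and none of the 17 was at 0 in every sample. For each further list, the leading markers are those of highest mean over all 8 samples. The 9 dendritic cell markers summed to 98.0 to 202 CPM in WT and 55.4 to 98.7 CPM in KO, led by Itgax, H2-Ab1 and Zbtb46. By edgeR 1 of 4 tested was called lower, and by DESeq2 3 of the 9. The 6 CD4 T cell and Treg markers summed to 504 to 659 CPM in WT and 690 to 787 CPM in KO, led by Ikzf2, Il2ra and Zbtb7b, with 3 of 6 called higher. The 6 NK cell markers, led by Klre1, Eomes and Tyrobp, spanned 95.8 to 125 CPM in WT and 67.7 to 81.4 CPM in KO, with 0 of 4 called by edgeR, 1 higher and 1 lower of the 6 called by DESeq2, and 1 higher and 3 lower at an unadjusted p under 0.05. The 8 B cell markers, led by Ighm, Cd22 and Cd79b, spanned 52.7 to 86.1 CPM and 30.6 to 87.7 CPM, with Blk at 0 throughout and 1 of 4 called in each direction. The 6 neutrophil markers, led by Mpo, Csf3r and S100a8, summed to at most 13.3 CPM, with S100a9 and Retnlg at 0. Of 2 tested, 0 were called by edgeR, 1 higher by DESeq2, and 1 in each direction had an unadjusted p under 0.05. Over all genes tested, edgeR called 4.9%, and DESeq2 called 614 higher and 504 lower of 18749. The share of all genes at an unadjusted p under 0.05 was not computed. The 9 tumor and stroma markers spanned 21.5 to 32.6 CPM and 59.2 to 79.5 CPM, led by Pecam1, Col1a1 and Col3a1, with Krt8 and Krt19 at 0 and 1 of 2 called higher. That 1 was Pecam1, which made up most of the sum, at 22.9 CPM in WT and 63.7 CPM in KO. Every other marker of this list averaged at most 1.181 CPM in each group, and Col1a1 and Col3a1 had lower means in KO. These values are repeated beside the receptors that such cells are known to carry.

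By position, 6 of the 9 genes lie on chromosome 9 of GRCm38. Cxcr5 (chr9:44511787-44561877, minus strand), Ccr4 (chr9:114490316-114504916, minus) and Cx3cr1 (chr9:119901616-120069879, minus) come first along it. Ccr8 (chr9:120092114-120094906, plus), Cxcr6 (chr9:123806475-123811760, plus) and Ccr2 (chr9:124101950-124113557, plus) follow. Cxcr4 lies at chr1:128588199-128592293 (minus), Ccr7 at chr11:99144196-99155077 (minus) and Cxcr3 at chrX:101731535-101734269 (minus). All 9 are protein-coding, with 2 to 5 separate blocks of exon sequence each.

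The study is concerned with TCF1, a factor that reads TCF/LEF motifs, so the start sites of the receptors were searched for one. RefSeq start-site windows (GRCm38.p6, 250 bases before to 50 after the start) were held for 7 of the 9 genes, which leaves Ccr7 and Cxcr5 named only. The letters CTTTGA or CTTTGT, on either strand, occurred in 4 of the 7 windows and in 31.2% of 32851 mouse windows of the same length. The T-box letters GGTGTGA occurred in 0 of the 7 and in 3.98% of all windows. The matches are printed to show where the motif falls, each 5′ to 3′ on the strand of its gene with up to 10 bases to each side and the motif in capitals (a match on the opposite strand reads TCAAAG or ACAAAG).
Ccr2, chr9:124102033-124102058, plus: tttttttttgCTTTGTtttgtttttc
Ccr4, chr9:114496559-114496584, minus: cacataccctTCAAAGcacctttgct
Cxcr3, chrX:101734294-101734319, minus: gaactgcaggCTTTGTaacagtccca
Cxcr6, chr9:123806338-123806363, plus: catgcttcatCTTTGActctcaaatt
Cxcr6, chr9:123806511-123806526, plus: tcactctggaACAAAG
Counted from the RefSeq start, these motifs begin at -140 (Ccr2), -30 (Ccr4), -162 (Cxcr3), and -129 and 44 (Cxcr6). In GENCODE M21 the printed stretches of Ccr2, Ccr4 and the Cxcr6 motif at 44 touch an exon, and the others do not. The Ccr2 and Ccr4 stretches lie inside the gene spans given above, so they are not upstream of those genes as annotated there. Among the 4 genes with a match, Ccr2 was called higher and the other 3 were not called. The Ccr2 match lies in a run of T. A match of 6 letters is a description of the sequence and says nothing about binding.

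Ccr2, the receptor for CCL2 and related monocyte chemoattractants, is also carried by activated T cells. It stood at 126, 153, 176 and 104.5 CPM in S1 to S4 and at 211, 328, 263 and 305 CPM in S5 to S8. The lowest KO sample, S5, was above the highest WT sample, S3. The means were 140.0 ± 31.4 CPM in WT and 277 ± 51.8 CPM in KO (SD, n = 4 each), a 1.98-fold difference. On the log2 scale it was 0.98 ± 0.16 (SE), with an edgeR adjusted p of 0.000493. The exact two-sided permutation test of the 4 against 4 log2 CPM values gave p = 0.0286, the smallest that 70 arrangements allow. How reads that match more than 1 related receptor gene were counted is not given in the sources used here. In sorted bulk cells a higher level of a transcript cannot be told apart from a larger share of cells that carry it. Ccr2 is abundant in inflammatory monocytes. The sum of the 17 macrophage and monocyte markers was lower in each KO sample than in any WT sample, although Itgam, Ctss and Mrc1 overlapped between the groups, and the part of those cells in Ccr2 was not tested. Without S3, which had the highest marker sum, the log2 fold change of Ccr2 was 1.11 (edgeR adjusted p = 0.000347). S1, S2 and S4 still had sums of 369, 442 and 503 CPM, so this fit does not test the part of those cells.

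Ccr7 binds CCL19 and CCL21 and leads cells to the T cell zones of lymph nodes. Its levels were 149.8, 199.9, 154 and 177 CPM in S1 to S4 and 95.4, 94.4, 72.4 and 101 CPM in S5 to S8. The highest KO sample was below the lowest WT sample. The mean fell from 170.2 ± 23.02 CPM to 90.9 ± 12.7 CPM (SD, n = 4 each), so that WT was 1.87-fold higher. This was -0.90 ± 0.12 (SE) on the log2 scale, with an edgeR adjusted p of 0.000119, and the exact permutation p was again 0.0286. Mature dendritic cells also carry Ccr7. Of their 9 markers, H2-Ab1 fell from 70.1 to 16.3 CPM (edgeR adjusted p = 0.000545). Within each group, the order of the samples in H2-Ab1 was that of their macrophage and monocyte marker sums. Which cells carried H2-Ab1 was not tested. Zbtb46 was at 12.8 CPM in WT and 6.01 CPM in KO, with groups apart, Itgax at 50.7 and 49.8 CPM and Fscn1 at 1.77 and 0.823 CPM, and these were not called by edgeR. The other 5 were under the filter, each with a lower mean in KO. DESeq2 called 3 of the 9 lower. The part of dendritic cells in Ccr7 was not tested. Without S3, which also had the highest dendritic cell marker sum, the log2 fold change of Ccr7 was -0.95 (edgeR adjusted p = 0.000345). S1, S2 and S4 still had sums of 98.0, 120.6 and 133.3 CPM, so this fit does not test the part of those cells.

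**Figure D1:**
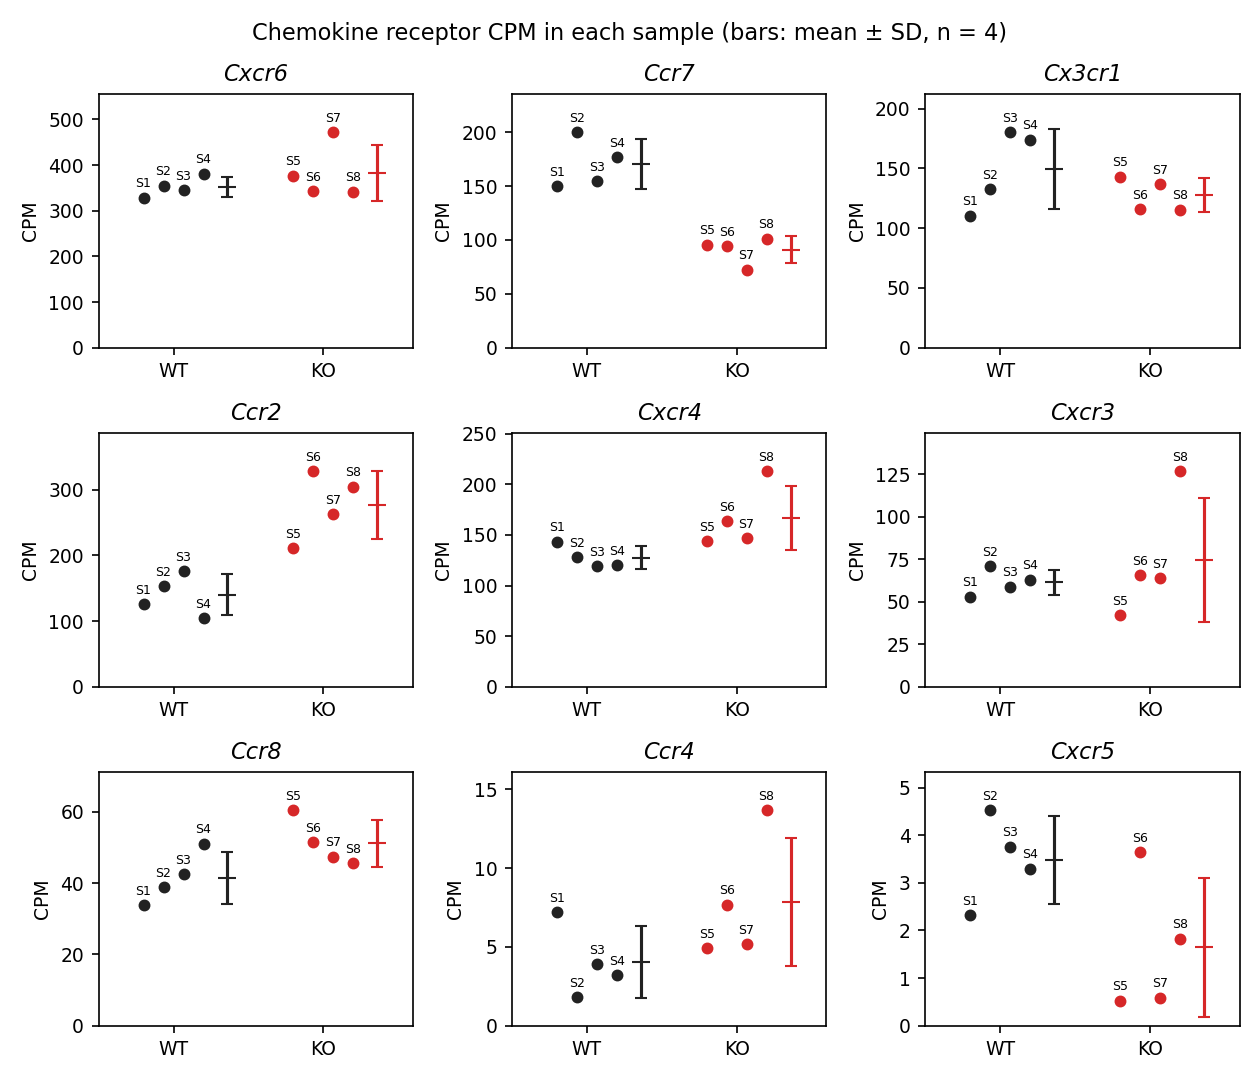
CPM (linear axes from 0) of the 9 chemokine receptors in each sample, with WT samples S1 to S4 in black, KO samples S5 to S8 in red, and the mean ± SD of the 4 beside them. Ccr2 is higher in all KO samples and Ccr7 lower, and the S8 point stands well above the other KO points for Cxcr3, Cxcr4 and Ccr4.

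Cxcr5, the other receptor of the lymphoid homing kind, binds CXCL13 and guides cells to B cell follicles. It was rare, with 40, 83, 46 and 40 counts in S1 to S4 and 8, 45, 7 and 52 counts in S5 to S8. That was 2.32, 4.52, 3.75 and 3.30 CPM in WT and 0.525, 3.64, 0.584 and 1.83 CPM in KO. S5, S7 and S8 were below the lowest WT sample, and S6 lay among the WT samples. KO differed from WT by -1.08 ± 0.63 (SE) in log2 fold change, with an edgeR adjusted p of 0.319 and an exact permutation p of 0.0857. Exons of Cxcr5 share 110 bases with exons of Bcl9l on the opposite strand, and Bcl9l stood at 75.0 CPM in WT and 63.9 CPM in KO. Whether the counting used strand was not stated, so reads of the pair may not be told apart.

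Cxcr4, the receptor for CXCL12, holds cells in bone marrow and stroma rich in that chemokine. Its levels were 143, 128, 119 and 120.0 CPM in S1 to S4 and 144, 164, 147 and 213 CPM in S5 to S8. The groups did not overlap, but S1 and S5 differed by less than 1 CPM. Its log2 fold change was 0.39 ± 0.12 (SE), the edgeR adjusted p 0.0558 and the exact permutation p 0.0286, so the gene was not called.

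Cxcr3 binds the interferon-induced chemokines CXCL9 and CXCL10 and is carried by effector and memory T cells. Its levels were 53.1, 70.9, 58.9 and 63.0 CPM in S1 to S4 and 42.0, 65.8, 63.9 and 127 CPM in S5 to S8. S5 was the lowest of all samples and S8 the highest, so the KO group spanned the whole WT range. With all samples the log2 fold change was 0.29 ± 0.23 (SE, edgeR adjusted p = 0.51), and without S8 it was -0.10 (edgeR adjusted p = 0.775), so its sign rested on S8.

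Cxcr6, the receptor for CXCL16, is a marker of tissue-resident and tumor-infiltrating T cells and was the most abundant of the 9. It stood at 328, 355, 346 and 381 CPM in S1 to S4 and at 377, 343, 472 and 342 CPM in S5 to S8. The ranges overlapped, and S7 was the highest sample. A log2 fold change of 0.12 ± 0.11 (SE) came with an edgeR adjusted p of 0.553 and an exact permutation p of 0.514.

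Cx3cr1, the fractalkine receptor of effector T cells and of many monocytes and macrophages, stood at 110.4, 133, 180.2 and 174 CPM in S1 to S4. Its KO levels were 143, 116, 137 and 115 CPM in the order S5 to S8. Each of them fell inside the WT range, and the KO samples were closer together than the WT samples. With a log2 fold change of -0.22 ± 0.14 (SE), Cx3cr1 had an edgeR adjusted p of 0.362 and an exact permutation p of 0.371. Within WT, the order of the samples in Cx3cr1 (S3, S4, S2, S1 from the top) was that of their macrophage and monocyte marker sums. Among the KO samples, Cx3cr1 was highest in S5 and the marker sum in S6. The part of those cells in Cx3cr1 was not tested. Exons of Cx3cr1 share 78 bases with Gm33858 on the opposite strand, a gene at 4.33 CPM in WT and 1.92 CPM in KO.

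**Figure D2:**
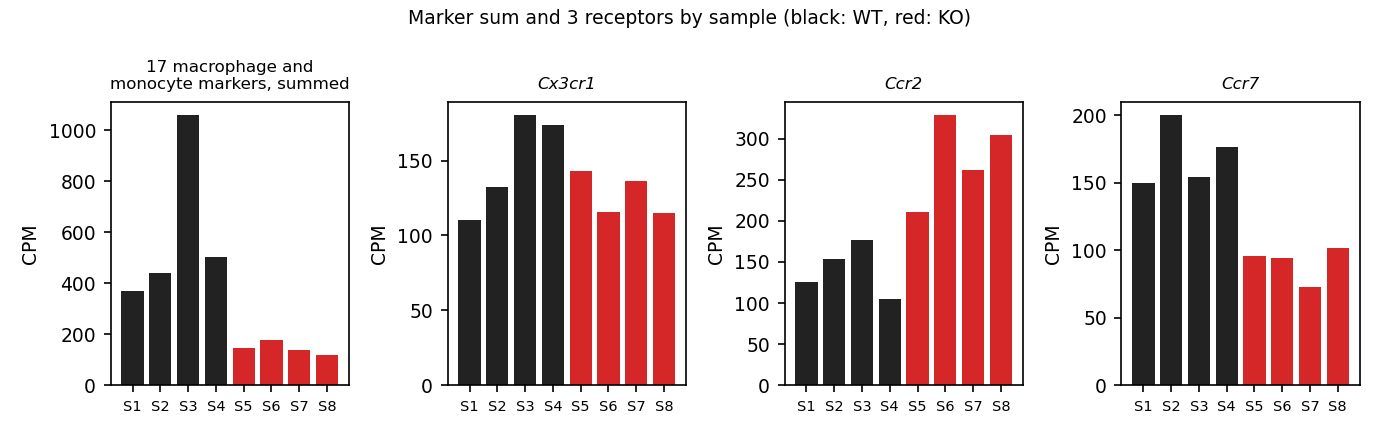
Summed CPM of 17 macrophage and monocyte markers and the CPM of Cx3cr1, Ccr2 and Ccr7 in each sample, as bars from 0 with WT in black and KO in red. The marker sum is highest in S3 at 1058 CPM and at most 179 CPM in KO, while Ccr2 is higher and Ccr7 lower in the KO samples.

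Ccr8 and Ccr4, receptors best known from Treg and Th2 cells and from cells of the skin, were not called. Ccr8, the receptor for CCL1, stood at 33.8, 38.9, 42.5 and 51.1 CPM in S1 to S4 and at 60.5, 51.5, 47.4 and 45.6 CPM in S5 to S8. S4 lay among the KO samples. Ccr8 had a log2 fold change of 0.30 ± 0.15 (SE), with an edgeR adjusted p of 0.226 and an exact permutation p of 0.114. Ccr4, which binds CCL17 and CCL22, was near the low end at 7.21, 1.80, 3.92 and 3.22 CPM in WT and 4.92, 7.68, 5.17 and 13.7 CPM in KO. S1 was above S5 and S7, and S8 alone stood well above the rest. The log2 fold change of Ccr4 was 0.97 ± 0.44 (SE), about that of Ccr2, but with an edgeR adjusted p of 0.182. It was 1.42 without S1 and 0.55 without S8. Beside these receptors, Cd4 was at 4.54 CPM in WT and 14.3 CPM in KO (edgeR adjusted p = 0.0162). Foxp3 was at 1.10 and 2.42 CPM, with overlapping groups (edgeR adjusted p = 0.37). Of the 6 CD4 T cell and Treg markers 3 were called higher, while Ikzf2 went the other way, from 341 to 284 CPM, and was not called. The part of CD4 cells in Ccr4 and Ccr8 was not tested.

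S8, the deepest sample, had the highest KO level of Cxcr3, Cxcr4, Ccr4 and Ccr7 among the receptors, the highest level of the egress receptor S1pr1 (124 CPM, the other KO samples between 39.8 and 60.1 CPM) and the lowest level of Pdcd1 (306 CPM). The depth of S8 and its other features cannot be told apart. Summed over the 9 receptors, WT samples held between 954 and 1085 CPM and KO samples between 1078 and 1264 CPM, and these ranges overlapped.

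Levels were compared between receptors only per length, as CPM per kilobase of exon (RPKM). In WT, Cxcr6 led at 182.5 ± 11.4 RPKM (SD, n = 4), and its range lay above that of Ccr7 at 86.1 ± 11.6 RPKM. Ccr7 and Cxcr4, at 70.6 ± 6.19 RPKM, overlapped. A second step separated Cxcr4 from Cxcr3 (35.5 ± 4.33 RPKM), Ccr8 (35.4 ± 6.19 RPKM), Cx3cr1 (33.2 ± 7.43 RPKM) and Ccr2 (20.7 ± 4.65 RPKM), and each of these overlapped its neighbor in the order. Ccr4 at 1.30 ± 0.74 RPKM and Cxcr5 at 1.04 ± 0.28 RPKM lay below all of them and overlapped each other.

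In KO the order differed in the middle. Cxcr6 stayed first at 198.6 ± 31.7 RPKM, Cxcr4 was second at 92.3 ± 17.7 RPKM, and Ccr7 followed at 45.9 ± 6.396 RPKM with a range below that of Cxcr4. Ccr7 overlapped Ccr8 (43.6 ± 5.65 RPKM), and so did Ccr8 with Cxcr3 (43.1 ± 21.1 RPKM), Cxcr3 with Ccr2 (40.9 ± 7.66 RPKM) and Ccr2 with Cx3cr1 (28.3 ± 3.15 RPKM). Ccr4 (2.54 ± 1.32 RPKM) and Cxcr5 (0.49 ± 0.44 RPKM) were again lowest and here did not overlap. The place of Ccr2 depended on the length used: with the 5728 bases of its longest transcript in place of 6760 bases of exon, its KO level was 48.3 RPKM and it ranked 3 rather than 6.

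**Figure D3:**
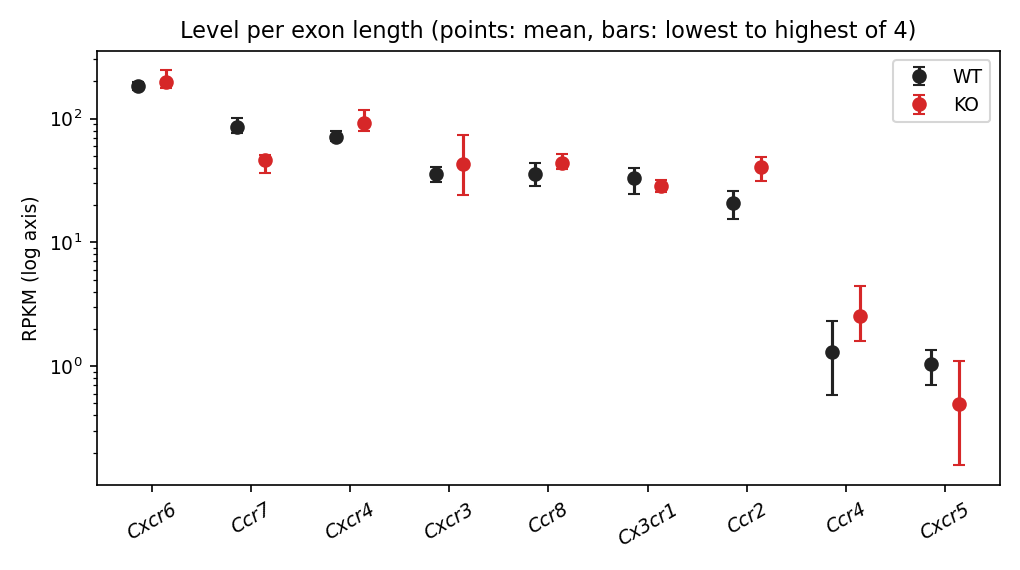
Level of each receptor in RPKM on a log axis, with points for the mean of 4 samples and bars from the lowest to the highest sample, WT in black and KO in red. Cxcr6 is the highest in both groups, the WT and KO bars are apart for Ccr7 and Ccr2, and those of Cxcr4 nearly touch.

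Among 10941 genes, those whose log2 CPM over the 8 samples lay nearest in shape to Ccr2 were Usp53, Cd1d1 and Il6st, at root mean square distances of 0.160, 0.166 and 0.171 log2 units after centering. Usp53 went from 24.5 to 50.5 CPM and Il6st, the shared signaling subunit of the IL-6 receptor family, from 72.4 to 157 CPM. For Ccr7 the nearest were Fam136a, Fuca1 and Rps27a-ps2, at 0.132, 0.163 and 0.172. These distances describe likeness over these samples, whose shape holds the group difference itself.

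A list of 16 other chemokine receptors and related genes was examined as well. Of these, 7 passed the filter and 9 did not, and 5 of the 9 were at 0 in every sample (Cxcr1, Cxcr2, Ackr1, Ackr2 and Pitpnm3). By edgeR 14.3% of the 7 were called, beside 4.9% of all genes, and groups were apart for 1, beside 17.3%. None of the 7 was called higher by edgeR's quasi-likelihood test (1 by DESeq2, and 2 at an unadjusted p under 0.05) and 1 was called lower, with a median log2 fold change of -0.19. The 1 was Ccrl2, an atypical receptor that binds chemerin without moving the cell, at 26.4, 29.3, 35.2 and 30.9 CPM in S1 to S4 and 14.5, 17.9, 15.0 and 16.8 CPM in S5 to S8. Its log2 fold change was -0.92 ± 0.17 (SE), with an edgeR adjusted p of 0.00136. The macrophage and monocyte marker sum was also lower in each KO sample than in any WT sample. The part of other cells in Ccrl2 was not tested.

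Ccr1, a receptor for CCL3 and CCL5, was singled out after its values were seen. It stood at 7.96, 18.8, 14.5 and 10.1 CPM in WT and at 42.7, 36.9, 25.0 and 13.7 CPM in KO, with S8 inside the WT range. Its log2 fold change was 1.196 ± 0.31 (SE, edgeR adjusted p = 0.0195), and without S8 it was 1.44 (edgeR adjusted p = 0.00209) and Ccr1 was called. Ccr1 is carried by monocytes and macrophages too, and the part of those cells was not tested. The remaining 5 tested receptors (Ccr3, Ccr6, Ccr9, Ccr10 and Cmklr1) stood at 9.03 CPM or less on average in each group and were not called.

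**Figure D4:**
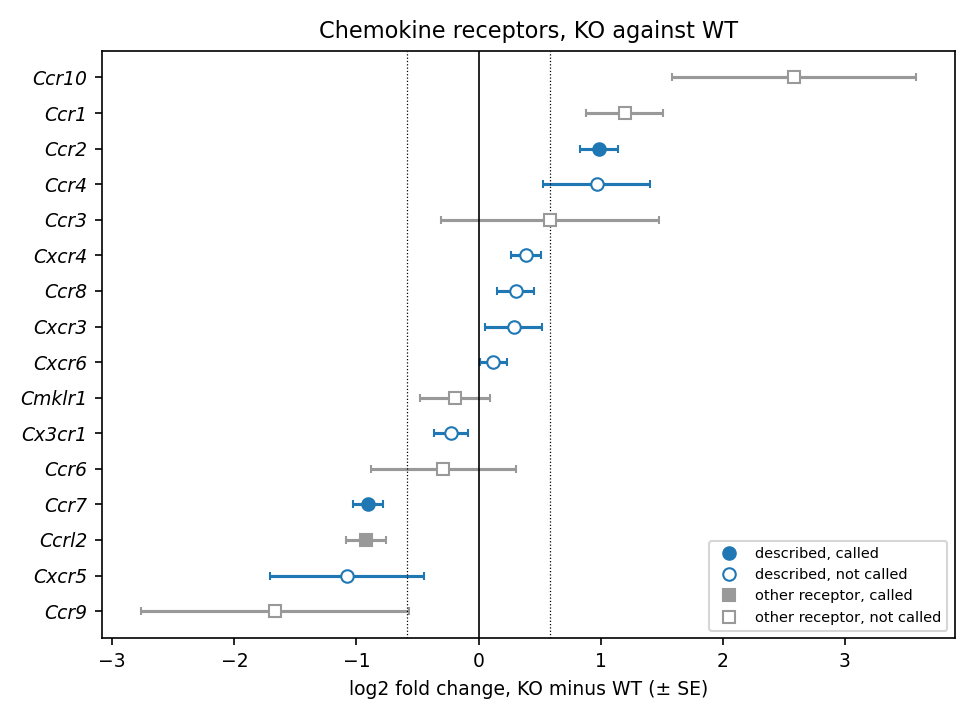
Log2 fold change of KO against WT with SE for the 9 receptors described (blue circles) and 7 other tested receptors (gray squares), filled where called. Dotted lines mark a fold change of 1.5. Ccr2 and Ccr7 lie on opposite sides with short bars, and the rare receptors Ccr9, Ccr10, Ccr3 and Cxcr5 have the longest ones.

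The chemokines that these receptors bind were mostly at or near 0 in the sorted cells. Of 16 ligands listed, 6 passed the filter, and Ccl17, Ccl19, Ccl21a and Cxcl12 were at 0 in every sample. None rose by edgeR or DESeq2, with 0 at an unadjusted p under 0.05, beside 2.91% of all genes called higher by edgeR. By edgeR 3 of the 6 fell, beside 1.99% of all genes. These 3 were the CXCR3 ligands Cxcl9 and Cxcl10 and the CXCR6 ligand Cxcl16. The groups were apart for 5 of the 6, all downward, beside 8.28% of all genes. Cxcl10 was at 14.9, 19.0, 14.1 and 19.1 CPM in S1 to S4 and 2.17, 5.09, 4.01 and 5.63 CPM in S5 to S8 (log2 fold change -1.98 ± 0.29, edgeR adjusted p = 0.00021). Cxcl16 fell from 22.7 ± 10.9 to 4.88 ± 2.51 CPM (SD, n = 4 each) and Cxcl9 from 19.1 ± 11.9 to 4.50 ± 3.83 CPM, with edgeR adjusted p of 0.000684 and 0.00769. S3 had the highest level of Cxcl9 and of Cxcl16, as it had of the macrophage and monocyte markers, whose median log2 fold change was -2.93. The median of the 6 ligands was -2.16. The call of Cxcl9 was lost without S3 (log2 fold change -1.59) and in 5 other fits that left out S2, S4, S5, S7 or S8, as well as with DESeq2 and with glmTreat. The CCR2 ligands Ccl2 (3.01 and 0.139 CPM) and Ccl7 (2.11 and 0.305 CPM) did not overlap between the groups. Neither was called by edgeR's quasi-likelihood test with the filterByExpr filter (adjusted p = 0.0122 and 0.0893). By the same test Ccl2 was called lower with a filter of 1 CPM (adjusted p = 0.00922) or no filter (adjusted p = 0.000529). The CCR8 ligand Ccl1 was at 18.9 CPM in WT and 16.6 CPM in KO. Macrophages and dendritic cells make several of these chemokines, and the part of those cells was not tested.

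Of 44 signaling genes listed, 43 were tested, and 1 was called higher and 0 lower by edgeR, or 2.3%, beside 4.9% of all genes. The groups were apart for 9 of the 43, beside 17.3% of all genes, and the median log2 fold change was 0.12. DESeq2 called 3 higher and 1 lower, beside 614 and 504 of 18749 genes. At an unadjusted p under 0.05 there were 11 higher and 5 lower, and the share of all genes at that threshold was not computed. The called gene was Grk5, a kinase that desensitizes G protein-coupled receptors, at 4.07, 7.47, 2.29 and 4.78 CPM in S1 to S4 and 12.7, 14.2, 14.3 and 14.1 CPM in S5 to S8. The lowest KO sample was above the highest WT sample (log2 fold change 1.56 ± 0.31, edgeR adjusted p = 0.00293), and the call was lost without S1, S4 or S7. Ptk2b, the kinase PYK2 that acts in T cell adhesion and migration, went from 248 to 358 CPM with an edgeR adjusted p of 0.00269, but its fold of 1.44 was under the threshold (an adjusted p under 0.01 at any fold was met by 5.63% of all genes). Tiam1, a Rac exchange factor named after its values were seen, stood at 17.2 CPM in WT and 35.2 CPM in KO (log2 fold change 1.04 ± 0.25, edgeR adjusted p = 0.0129).

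Among 14 receptors for other chemoattractants, 13 were tested, 1 was called higher and 2 were called lower, or 23.1%, beside 4.9% of all genes. The groups were apart for 6 of the 13, beside 17.3% of all genes. Gpr15, a homing receptor of T cells of the gut and skin, rose most of the 13, from 6.22, 2.67, 2.69 and 4.04 CPM in S1 to S4 to 24.0, 40.9, 32.8 and 33.9 CPM in S5 to S8. Its log2 fold change was 3.06 ± 0.27 (SE), with an edgeR adjusted p of 1.19e-06. The complement receptors C3ar1 (25.9 to 2.84 CPM) and C5ar1 (7.34 to 0.846 CPM) fell by 3.23 and 3.13 on the log2 scale (edgeR adjusted p = 0.00106 and 0.00403). Both are carried mainly by myeloid cells, and S3 was the highest sample for C3ar1, and S1 for C5ar1. The sphingosine-1-phosphate receptor S1pr4, named after its values were seen, went from 80.9 ± 7.48 to 116 ± 16.1 CPM (SD, n = 4 each). Its groups did not overlap and its edgeR adjusted p was 0.00858, but its fold of 1.44 was under the threshold. S1pr1, which leads T cells out of lymphoid organs, stood at 49.6 ± 8.96 CPM in WT and 66.5 ± 39.3 CPM in KO and was not called (edgeR adjusted p = 0.375).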

How the data were processed

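The deposited table held raw read counts per gene (55335 genes, 8 samples), which the authors made by STAR alignment to GRCm38/mm10 and featureCounts with a GENCODE annotation from rRNA-depleted directional libraries. Strand and multi-mapping settings are not given in the sources used here. The authors tested with DESeq2 after a CQN correction for GC content, and their comparison columns were not used. Columns were matched to the WT and KO groups only.

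Here, genes were filtered with filterByExpr (15378 kept), scaled by TMM (factors 0.94 to 1.05) and fitted with edgeR 4.0.16 (glmQLFit, R 4.3.3) without covariates. P-values were adjusted by Benjamini and Hochberg over all tested genes, and SE is the log2 fold change over the root of F. CPM values are TMM-scaled. RPKM used GENCODE M21 exon lengths, in which 55154 gene IDs were matched. Exact two-sided permutation tests used the log2 CPM (prior count 2) of 4 against 4 samples. At these depths, 3 counts equal 0.106 to 0.250 CPM per sample, which covers counting error only. Over 12 within-group pairs of samples, the median chi-square per gene was 4.87 to 8.52, where sampling noise gives 0.455, so no pair of samples agreed within sampling noise. The scripts were tested on simulated data.

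Alternatives were other scalings, no filter, a stricter filter of 1 CPM, a prior count of 0.5 (for likeness, where 2 was used), longest transcript lengths (for RPKM), DESeq2 1.42.0, a likelihood ratio test, glmTreat, an adjusted p of 0.05, GC offsets (mgcv 1.9.3) and leaving out each sample. Named genes are the 9 receptors and Kdm1a, called genes of the 4 related lists, the 3 nearest genes in pattern to each called receptor, and markers of highest level. The members, lists and tests were chosen with earlier results of these data known. Ccr1, S1pr4, Tiam1, Ptk2b, S1pr1, the ligands not called and single markers beyond this rule were named after their values were seen. 1 listed gene is not reported here.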

Additional observations from a re-analysis of the deposited data

Results flagged for a closer look

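Among the KO samples, Grk5 was lower in S5 (3.68 log2 CPM) than in the other 3 samples (3.83 to 3.85), a gap that took up 0.918 of the whole range of the group. Tiam1 was lower in S7 (4.18 log2 CPM) than in the other 3 (5.24 to 5.43), a gap of 0.848 of the range. Of 42 groups of 4 samples examined, 2 stood out in this way, where chance flags about 1 in 20, or 2.1.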

How the results depend on the processing

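No paired analysis was possible because the columns carry no replicate numbers. Of 18 alternatives, 17 kept the calls of Ccr2 (log2 fold change 0.87 to 1.11) and of Ccr7 (-0.96 to -0.81), and leaving out single samples gave adjusted p of 0.000129 to 0.00284 and of 0.00018 to 0.000923. glmTreat, which tests against a fold of 1.5 and is stricter by construction, called 0 of the described receptors higher and 0 lower (adjusted p 0.0678 for Ccr2 and 0.0659 for Ccr7). It also called 0 other chemokine receptors lower, 0 signaling genes higher and 1 other chemoattractant receptor lower. Cxcr3 turned to -0.103 without S8 (range -0.103 to 0.485 when leaving out samples). Other chemokine receptors called higher numbered 1 with no filter, DESeq2, the likelihood ratio test or an adjusted p of 0.05 (0 to 1 when leaving out samples, with 1 without S8). Signaling genes called higher numbered 3 with no filter, DESeq2 or the likelihood ratio test, 4 at an adjusted p of 0.05, 2 with GC offsets and 0 to 2 when leaving out samples, with 0 without S4. Those called lower numbered 1 with DESeq2, the likelihood ratio test or an adjusted p of 0.05. Other chemoattractant receptors called higher numbered 2 with GC offsets and 1 to 2 when leaving out samples, where S1pr4 was added without S5. Those called lower numbered 1 to 2 when leaving out samples, since C5ar1 was lost without S1, S2, S3, S6 or S7. Ligands called lower numbered 2 to 4 over the alternatives, beside 3, with Cxcl9 lost in 8 of 18. DESeq2 called Ccl2, Cxcl10 and Cxcl16. Over all genes, 447 were higher and 306 lower, against 165 and 130 with glmTreat, 695 and 551 at an adjusted p of 0.05, 642 and 531 with no filter, 614 and 504 with DESeq2, and 347 and 199 without S2. The cause was not tested. Ccr4 and Cxcr5 rest on 865 and 321 counts over the 8 samples.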
